A study of Mus musculus with 9 samples.

Results

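Foxp1 encodes a forkhead transcription factor that is abundant in the medium spiny neurons of the striatum, and the circRNAs made from this gene are described here in RNA immunoprecipitates (RIP) of HuD. The members were chosen by gene symbol, as all circRNAs that the deposited tables of HuD RIP against IgG RIP or of HuD RIP against WT RIP assign to Foxp1. There were 3 such circRNAs among 737 named in those tables and 14330 non-control features on the array, and all 3 were among the 6871 features that were tested because at least 3 of the 9 arrays measured them well above background. The tables list circRNAs that the authors called higher in HuD RIP, so the 2 HuD RIP contrasts chose the members and are given below as values with no test. The 3 Foxp1 circRNAs are mmu_circRNA_40606 (called the outer circRNA below), mmu_circRNA_40607 (the nested circRNA) and mmu_circRNA_40615 (the upstream circRNA). Only the outer circRNA was in both tables, and the other 2 were in the IgG RIP table only.

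CircRNAs form when the spliceosome joins the end of an exon back to the start of the same or an earlier exon, which leaves a closed loop without free ends. One gene can give several circles that differ in the exons they enclose, and each circle has a back-splice junction of its own that a probe can detect. HuD (ELAVL4) is a neuronal member of the ELAV family of RNA-binding proteins, which bind U-rich and AU-rich stretches of RNA and are known for stabilizing neuronal transcripts. In the striatum, FOXP1 is known for its part in the differentiation of projection neurons.

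RNA recovered by RIP from adult mouse striatum was hybridized to 9 one-colour circRNA arrays, with 3 arrays in each of 3 groups. HuD RIP was precipitated with the anti-myc tag antibody 9B11 from HuD-OE tissue, in which the transgene for myc-tagged HuD is driven by the Camk2a promoter on a C57BL/6J background, WT RIP used that antibody on wild type tissue, and IgG RIP used HuD-OE tissue. The study's methods give a non-immune IgG for the last group, whereas its labels carry the anti-myc antibody and the genotype "IgG". Tissue was pooled for each precipitation, so the spread between arrays is that between precipitations of pooled tissue and may be technical. All RNA was digested with RNase R, which removes linear RNA.

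The 3 circRNAs differ in where they lie along Foxp1. The gene occupies chr6:98925342-99522746 on the minus strand of GRCm38.p6, and the deposited tables place every Foxp1 circRNA on that strand and class all 3 as exonic, with NM_053202 as the transcript. The upstream circRNA spans chr6:99260344-99308438, or 48094 bases. The outer circRNA spans chr6:99003199-99260419, or 257220 bases, and among the 644 named exonic circRNAs, whose median span was 11642 bases, only 6 spanned as much, itself included. The nested circRNA spans chr6:99075853-99163029, or 87176 bases, wholly within the outer one and over 33.9% of its span. The upstream and outer circRNAs meet at their ends, where their spans overlap by 75 bases. Of the 3 RefSeq promoter windows of Foxp1, one lies before all 3 circRNAs, one lies inside the span of the upstream circRNA and one inside that of the outer circRNA. Exons and untranslated regions were not analysed here, and whether the tables count the start from 0 or from 1 is not stated in the sources used here.

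**Figure D1:**
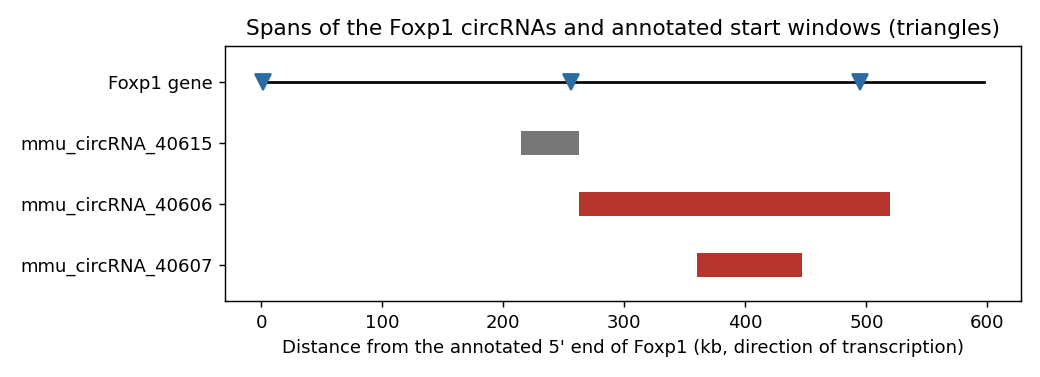
Spans of the 3 Foxp1 circRNAs along the gene, as distance in kb from the annotated 5' end in the direction of transcription, with RefSeq start windows as triangles. The upstream circRNA ends where the outer one begins, and the nested circRNA lies inside the outer one.

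Each circRNA is measured by 1 probe in 1 spot, and the tables give 60 bases for it. The orientation of these bases was checked on 49 pairs of named exonic circRNAs that share one end. In 48 of the pairs the shared run of at least 10 bases lay on the side that the sense strand predicts, and in 1 pair on the other side. The position of the junction within the 60 bases was not determined, so it is not marked here and nothing is in capitals. Bases 16 to 45 of the 60 are shown, 5′ to 3′ in the sense direction, to let the 3 probes be told apart.
mmu_circRNA_40615: aaataaaaggctccttctgtgtgctgcagt
mmu_circRNA_40606: gtgagacgtgacctttggaggtgactataa
mmu_circRNA_40607: ctcccaagaggaatgacaagcaaccagctc
Over the whole 60 bases, the upstream circRNA held 18 T, the nested one 17 and the outer one 13, against a median of 14 over the 737 named circRNAs. At least as many T as in the upstream circRNA were found in 18.6% of the named circRNAs, as many as in the nested one in 26.1% and as many as in the outer one in 64.0%. The motif TTTTT, a U-rich stretch of the kind ELAV proteins bind, occurred on the sense strand of the nested circRNA and of 3.66% of the named circRNAs. On the opposite strand TTTTT occurred in the upstream circRNA and in 8.41% of the named circRNAs. The AU-rich motif ATTTA, which cannot overlap with TTTTT, was in no Foxp1 window on the sense strand, where 5.29% of the named circRNAs held it, and on the opposite strand it was in the upstream circRNA and in 3.8% of the named circRNAs. A window of 60 bases is a small part of each circle, and these matches describe only the window.

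The tables also list 5 miRNAs for each circRNA as predicted binding partners. The outer and nested circRNAs shared 3 of their 5 miRNAs, while the upstream circRNA shared 0 with either, and 12 different miRNAs were listed in all. The 3 shared miRNAs are shown because the outer and nested circRNAs both list them and the upstream one does not. The seed (bases 2 to 8) is in capitals, and the sequences are from RefSeq on GRCm38.p6.
mmu-miR-367-5p: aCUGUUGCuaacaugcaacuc
mmu-miR-370-3p: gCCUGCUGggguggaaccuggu
mmu-miR-683: cCUGCUGUaagcuguguccuc
The seeds of mmu-miR-370-3p and mmu-miR-683 share a run of 6 bases, CUGCUG, and no 2 of the 3 seeds are identical. Among the 737 named circRNAs, 10 list mmu-miR-370-3p, 12 list mmu-miR-683 and 2 list mmu-miR-367-5p, which are the 2 Foxp1 circRNAs. None of the 3 seeds had its complement in a Foxp1 window, and of the 12 listed miRNAs only mmu-miR-370-5p, listed for the upstream circRNA, had a seed match, which was in the window of the outer circRNA.

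The arrays differed in brightness, which bears on every value below. The 75th percentile of the log2 processed signal ranged from 3.49 to 5.46 for HuD RIP, from 2.35 to 3.51 for WT RIP and from 2.04 to 2.42 for IgG RIP, and the share of features well above background ranged from 43.7% to 73.9%, from 25.4% to 44.6% and from 21.7% to 26.3%, respectively. Scaled values are the log2 processed signal minus the array's own 75th percentile, so a value of 0 marks that percentile. With 21.7% to 26.3% of features well above background, that percentile lay near the limit of detection on the IgG RIP arrays. The same holds for the WT RIP array at 25.4%, while on the HuD RIP arrays, at 43.7% to 73.9%, it lay within detected signal. Scaled differences between HuD RIP and the controls therefore rest on unlike reference points. Of 20 marker genes of striatal projection neurons, oligodendrocytes, astrocytes and microglia, 3 had a named circRNA (Bcl11b and Arpp21 of projection neurons, Slc1a2 of astrocytes), and 1, the oligodendrocyte gene Mbp, had a linear probe. The astrocyte Slc1a2 circRNA had scaled log2 levels between 2.24 and 3.19 in HuD RIP, between 1.48 and 3.05 in WT RIP, and between 1.99 and 2.16 in IgG RIP, and linear Mbp had -0.52 to 1.96, -1.25 to 0.56 and 0.90 to 1.29. On that scale the mean of the Slc1a2 circRNA was higher in HuD RIP, by 0.76 in log2 against WT RIP and 0.71 against IgG RIP. The circRNAs of both projection neuron genes were higher in HuD RIP too. Those of Arpp21 exceeded WT RIP by 3.88 (mmu_circRNA_018301), 3.95 (mmu_circRNA_45179) and 5.47 (mmu_circRNA_010556) in log2, and that of Bcl11b by 2.78. From IgG RIP these 4 differed by between 3.51 (Bcl11b) and 4.45 (mmu_circRNA_010556). All of these are named because the tables list them as higher in HuD RIP. The part of any of these cells in the Foxp1 values was not tested. In RNA recovered by RIP from tissue, fewer cells of a type, less RNA per cell and less recovery in the precipitation cannot be told apart.

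The outer circRNA mmu_circRNA_40606 stood high in HuD RIP, was dimmer in WT RIP and was near background in IgG RIP. Its processed signal, in scanner units, was 359, 31.2 and 86.6 for HuD RIP replicates 1 to 3, against 17.8, 1.72 and 5.30 for WT RIP and 3.94, 2.54 and 3.54 for IgG RIP. The scanner software's own error for this spot was 1.01 on WT RIP array 2, the dimmest. It was well above background on 3 HuD RIP arrays, 2 WT RIP arrays and 0 IgG RIP arrays. Its scaled log2 levels were 3.02, 1.47 and 2.23 in HuD RIP, 0.65, -1.57 and -0.42 in WT RIP, and -0.44, -0.70 and -0.22 in IgG RIP. Every HuD RIP array therefore lay above all 6 control arrays, and WT RIP spread across the whole range of IgG RIP on both sides.

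The mean scaled log2 level of the outer circRNA in HuD RIP was 2.24 ± 0.775 (SD, n = 3), that in WT RIP -0.45 ± 1.11 (SD, n = 3), and that in IgG RIP -0.46 ± 0.236 (SD, n = 3). The difference on the log2 scale was 2.69 against WT RIP (SE 0.56), or 6.44-fold, beside a median of -0.36 over all tested features. Against IgG RIP, where it was not well above background on any array, the fitted log2 difference was 2.70. With each IgG RIP array counted at no less than its lowest well-above-background signal, HuD RIP was 4.89-fold higher. That bound holds for this scaling only, and other processing went below it. The size moved by over 1.5 times with the processing, to a log2 difference of 1.20 against IgG RIP under normexp background correction, and to 0.44 with array brightness (its 75th percentile) entered as a covariate, which is under the study's threshold of 1.5-fold.

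The nested circRNA mmu_circRNA_40607 was the brightest Foxp1 spot in HuD RIP. Its processed signal reached 585, 41.3 and 89.2 for HuD RIP, compared with 22.4, 2.25 and 8.67 for WT RIP and with 2.96, 1.33 and 2.64 for IgG RIP. It too was well above background on 3 HuD RIP arrays, 2 WT RIP arrays and 0 IgG RIP arrays. Scaled log2 levels were 3.73, 1.88 and 2.27 in HuD RIP, 0.98, -1.18 and 0.30 in WT RIP and -0.85, -1.63 and -0.65 in IgG RIP. The HuD RIP arrays again lay above all 6 control arrays, and 2 of 3 WT RIP arrays lay above all IgG RIP arrays.

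On the scaled log2 scale the nested circRNA had a mean of 2.62 ± 0.976 (SD, n = 3) in HuD RIP. Its mean in WT RIP was 0.03 ± 1.10 (SD, n = 3), and in IgG RIP it was -1.04 ± 0.517 (SD, n = 3). HuD RIP exceeded WT RIP by 2.59 in log2 (SE 0.61), or 6.03-fold, although this circRNA is not in the deposited table of that contrast. Without WT RIP array 2, on which the spot was not well above background, the log2 difference was 1.99. Against IgG RIP the fitted log2 difference was 3.67, and the bound made as for the outer circRNA was 6.38-fold under this scaling. Other processing went below that bound, with a log2 difference of 1.46 under normexp. On arrays of one group, the outer and nested circRNAs followed the same order as array brightness, with array 1 highest, array 3 next and array 2 lowest in HuD RIP and in WT RIP, and with the brightness covariate the log2 difference of the nested circRNA came down to 0.85 for WT RIP and 1.09 for IgG RIP. Brightness differed with group, at 3.49 to 5.46 for HuD RIP and 2.04 to 2.42 for IgG RIP, with no overlap. WT RIP, at 2.35 to 3.51, overlapped with HuD RIP only at the edge. The fit with brightness therefore cannot tell brightness and group apart against IgG RIP, and has little overlap to do so against WT RIP. The part of brightness in these values was not tested.

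The upstream circRNA mmu_circRNA_40615 was measured in every group, as the only one of the 3 that was well above background on all 9 arrays. Its processed signal came to 119, 36.4 and 55.3 for HuD RIP, 42.1, 16.6 and 19.5 for WT RIP, and 9.43, 6.58 and 8.12 for IgG RIP. After scaling, its log2 levels were 1.43, 1.70 and 1.58 in HuD RIP, 1.89, 1.70 and 1.47 in WT RIP, and 0.82, 0.68 and 0.97 in IgG RIP. HuD RIP and WT RIP overlapped, and both lay above all IgG RIP arrays. The spread within a group was narrow, with an SD of 0.135 in HuD RIP, 0.212 in WT RIP and 0.148 in IgG RIP (n = 3 each).

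The upstream circRNA differed by -0.12 in log2 between HuD RIP and WT RIP (SE 0.35, 95% interval -0.87 to 0.64) and by 0.75 between HuD RIP and IgG RIP (SE 0.35), or 1.68-fold, where the 95% interval reached down to -0.01. The direction against WT RIP turned with the scaling and the background correction, at 0.12 with quantile normalization, 0.59 with the percentile taken over features detected on all 9 arrays, 0.60 with cyclic loess, 0.29 without background correction, 0.27 with normexp and 1.38 without scaling. Against IgG RIP it lay above 0 under each of the 21 alternatives run, from 0.56 with normexp, which is under 1.5-fold, to 1.52 with cyclic loess, 1.56 with the percentile over detected features and 2.96 without scaling.

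**Figure D2:**
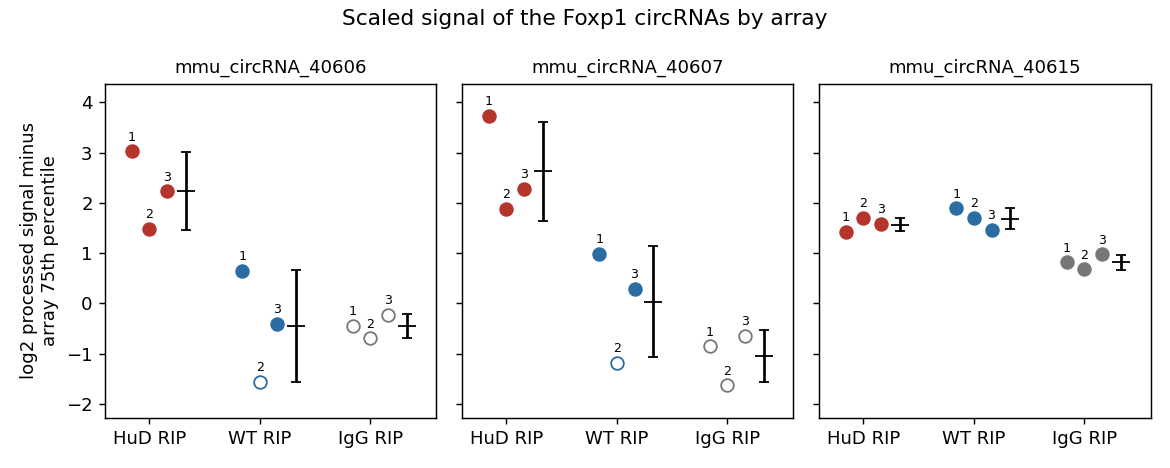
Scaled log2 signal (processed signal minus the array's 75th percentile) of the 3 Foxp1 circRNAs in each group, with numbered points for replicate arrays, open points where the spot was not well above background, and bars for the mean ± SD (n = 3). The outer (mmu_circRNA_40606) and nested (mmu_circRNA_40607) circRNAs lie above all control arrays in HuD RIP, and the upstream circRNA (mmu_circRNA_40615) overlaps between HuD RIP and WT RIP.

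As counts, 2 of the 3 Foxp1 circRNAs exceeded WT RIP by over 1.5-fold in HuD RIP, as did 28.3% of tested features, and 3 of 3 exceeded IgG RIP by over 1.5-fold, as did 29.5%. All 3 HuD RIP arrays lay above all 3 WT RIP arrays for 2 of the 3 (14.9% of tested features) and above all 3 IgG RIP arrays for 3 of 3 (20.9%), and they lay above all 6 control arrays for the outer and nested circRNAs (12.5%). These contrasts chose the members, so nothing is read from the shares. The median log2 difference of the 3 was 2.59 for the contrast with WT RIP and 2.70 for that with IgG RIP, beside medians of -0.36 and -0.29 over all tested features. At the edge of the selection, the upstream circRNA was listed against IgG RIP with 1.68-fold here. Of the 2 not listed against WT RIP, the upstream circRNA had 0.922-fold and the nested circRNA 6.03-fold (SD 1.10 among the WT RIP arrays). The outer circRNA, which is listed there, had 6.44-fold (SD 1.11), and why the nested circRNA is not listed was not tested.

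**Figure D3:**
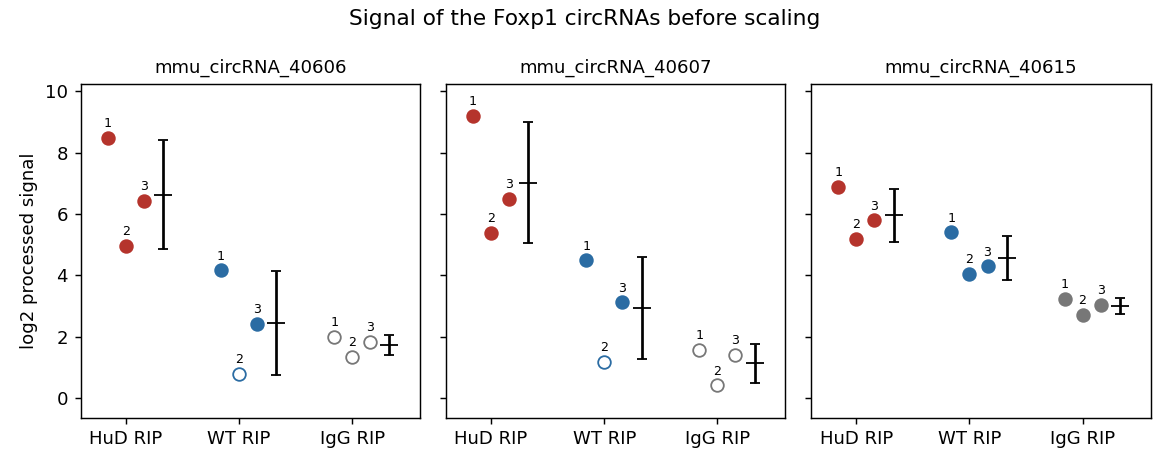
Log2 processed signal before scaling, laid out by circRNA, group and replicate with the mean ± SD (n = 3), and open points where the spot was not well above background. Without scaling each of the 3 circRNAs has its highest group mean in HuD RIP, and the WT RIP mean of the upstream circRNA (mmu_circRNA_40615), 4.58, lies between those of HuD RIP, 5.96, and IgG RIP, 2.99.

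WT RIP and IgG RIP were set against each other because this contrast did not choose the members, although it uses the same control arrays. All 3 WT RIP arrays lay in row 1 of the slide and all 3 IgG RIP arrays in row 2, one of them on another slide, so row and group can be separated only through the HuD RIP arrays, and with row as a block the difference of the outer circRNA turned to -1.16 and that of the nested one to -0.58. No Foxp1 circRNA passed an adjusted p of 0.05 in limma, against 0% of tested features called higher and 0.0146% called lower. Of the 6871 tested features, 393 had an unadjusted p under 0.05. The upstream circRNA was higher in WT RIP than in IgG RIP by 0.86 in log2 (SE 0.35, 95% interval 0.11 to 1.62). Its limma p was 0.0287 before and 0.835 after adjustment, and the interval is not adjusted for the number of tested features. Of tested features, 5.22% had a difference at least as high. All 3 WT RIP arrays lay above all 3 IgG RIP arrays. The share of tested features that did so was not counted, so nothing is read from this separation. The outer circRNA differed by 0.01 (SE 0.56, limma adjusted p = 0.999, 95% interval -1.21 to 1.23) and the nested circRNA by 1.08 (SE 0.61, limma adjusted p = 0.999, 95% interval -0.25 to 2.40), with IgG RIP not well above background for either. These intervals allow differences of over 1.5-fold in either direction for the outer circRNA. Beside them, the median over all tested features was -0.05.

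The difference between 2 circRNAs on the same array does not depend on a constant scaling of that array, so it sets the isoforms against each other directly. The outer minus the upstream circRNA was 1.60, -0.22 and 0.65 in log2 for HuD RIP, -1.24, -3.27 and -1.88 for WT RIP, and -1.26, -1.37 and -1.20 for IgG RIP. Thus the outer circRNA stood above the upstream one on 2 of 3 HuD RIP arrays and below it on all 6 control arrays, and the HuD RIP arrays did not overlap with either control. The nested minus the upstream circRNA was 2.30, 0.18 and 0.69 in HuD RIP, -0.91, -2.88 and -1.17 in WT RIP, and -1.67, -2.31 and -1.62 in IgG RIP, with HuD RIP again above every control array. The outer and nested circRNAs were not well above background on the IgG RIP arrays or on WT RIP array 2, so their differences there rest on dim spots. As probes differ in brightness per molecule, the sign on one array does not rank the abundance of the circles, and only the change between groups is comparable. The HuD RIP contrasts chose the members, and the outer circRNA is listed against WT RIP while the upstream one is not. That listing favours a rise of outer minus upstream from WT RIP to HuD RIP. How many other pairs separate in this way was not counted, so nothing is read from the separation.

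Relative to the upstream circRNA, the outer one exceeded WT RIP by 2.80 in log2 and IgG RIP by 1.95 in the HuD RIP arrays, and the nested one by 2.71 and 2.92. The pooled SD of these within-array differences was 0.976 and 0.646 for the outer circRNA and 1.09 and 0.828 for the nested one. Under normexp the changes were 0.91 and 0.65 for the outer and 1.08 and 0.91 for the nested circRNA. Each of the 4 lay above 0 under each of the other alternatives run, except with the brightness covariate given next. With array brightness as a covariate, an alternative chosen after seeing the data, the changes from WT RIP were 1.21 for the outer and 0.90 for the nested circRNA, and from IgG RIP the outer one turned to -0.42 while the nested one came down to 0.23. Without HuD RIP replicate 1 the changes of the nested circRNA were 2.09 from WT RIP and 2.30 from IgG RIP, and without WT RIP replicate 2 the former was 2.10. In the test between the controls, the outer minus the upstream circRNA differed by -0.85 between WT RIP and IgG RIP (two-sided exact permutation test, p = 0.3, adjusted over the 3 pairs p = 0.45) and the nested minus the upstream by 0.21 (exact p = 0.8, adjusted p = 0.8). With 3 arrays in each group, this design cannot give a p below 0.1.

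The outer and nested circRNAs were close to each other in HuD RIP and WT RIP, and less so in IgG RIP. The nested minus the outer circRNA was 0.70, 0.40 and 0.04 in log2 for HuD RIP and 0.33, 0.39 and 0.71 for WT RIP, a change of -0.09 between these groups with a pooled SD of 0.275. On the IgG RIP arrays, where neither was well above background, it was -0.41, -0.93 and -0.42. The change from IgG RIP to HuD RIP was 0.97 with a pooled SD of 0.315 and no overlap of the groups, and that from IgG RIP to WT RIP was 1.07 (exact p = 0.1, the smallest this design can give, adjusted p = 0.3). Over the 9 arrays the scaled levels of the outer and nested circRNAs correlated at a Pearson r of 0.958, and at 0.952 once group means were taken out, against 0.339 and 0.0751 for the outer with the upstream and 0.539 and 0.00478 for the nested with the upstream. Before scaling the 3 correlations were 0.986, 0.919 and 0.963 in the same order, so the pairs with the upstream circRNA stood apart in the scaled values and much less in the unscaled ones. These values describe 9 arrays that share group and brightness differences. Among 731 other named and tested circRNAs with 1 gene symbol, 38.9% also had an r above 0.9 with the outer circRNA. The share was 20.4% for the nested and 0.137% for the upstream circRNA, so a high r was not particular to the outer and nested pair.

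**Figure D4:**
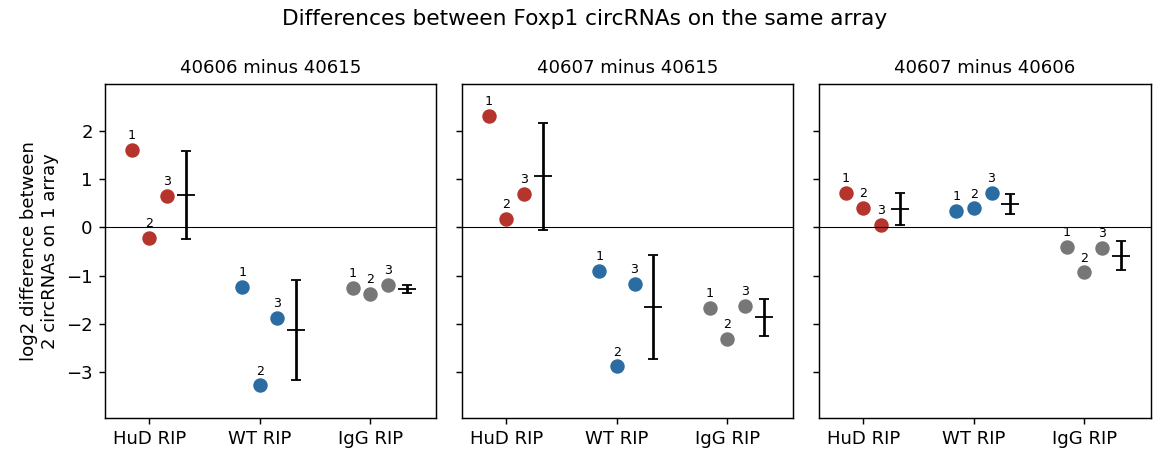
Log2 differences between pairs of Foxp1 circRNAs on the same array, by group, with numbered replicate arrays and the mean ± SD (n = 3). Relative to the upstream circRNA (mmu_circRNA_40615), the outer (mmu_circRNA_40606) and nested (mmu_circRNA_40607) circRNAs are higher on each HuD RIP array than on any control array, and the nested minus outer difference overlaps between HuD RIP and WT RIP.

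The spread among the Foxp1 circRNAs was set beside that of other genes, as a description. Of 145 genes with at least 2 named and tested circRNAs, the range of log2 differences against WT RIP was as wide as the 2.80 of Foxp1 in 3 genes, Foxp1 included, and the range against IgG RIP as wide as its 2.92 in 4 genes. The median range over the 145 genes was 0.72 in the WT RIP contrast and 0.70 in the IgG RIP contrast. Most of these genes have fewer named circRNAs than Foxp1, and among the 28 genes with 3 the median range was 0.91 and 1.17, and 2 genes had as wide a range as Foxp1 in each contrast, Foxp1 included. The named circRNAs were listed as higher in HuD RIP and several controls were near background, and the contrasts are those that chose the circRNAs, so nothing on how common such a range is can be read from them.

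The 3 circRNAs whose scaled signal followed each Foxp1 isoform most closely over the 9 arrays are named next, as a description. Among 731 other named and tested circRNAs with 1 gene symbol, the outer circRNA was most alike to those of Mapk10, a neuronal JNK kinase (mmu_circRNA_39064, Pearson r = 0.988), Kif5c, a neuronal kinesin heavy chain (mmu_circRNA_33536, r = 0.988), and Inpp4a, an inositol polyphosphate phosphatase (mmu_circRNA_19936, r = 0.985). The nested circRNA was most alike to those of Tnik (mmu_circRNA_35192, r = 0.981), Ccny (mmu_circRNA_31249, r = 0.980) and Dlgap1, a postsynaptic scaffold protein (mmu_circRNA_011419, r = 0.975). The upstream circRNA was most alike to those of the transcription factor Ets1 (mmu_circRNA_43955, r = 0.908), the microtubule-associated protein Map1a (mmu_circRNA_34414, r = 0.881) and Sfmbt1 (mmu_circRNA_27362, r = 0.871). The median r with all 731 was 0.873 for the outer, 0.831 for the nested and 0.349 for the upstream circRNA.

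Among other forkhead genes, only Foxk2 had named circRNAs, 2 in number. Their log2 differences were 0.48 (mmu_circRNA_24499) and 0.58 (mmu_circRNA_24500) against WT RIP and 1.01 and 1.23 against IgG RIP, and both were well above background on all 9 arrays. Foxk2, another forkhead transcription factor, thus lay between the upstream Foxp1 circRNA and the other 2 in both HuD RIP contrasts. Neither Foxk2 circRNA passed the limma test between WT RIP and IgG RIP (adjusted p = 0.999 for both).

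Of 22 transcription factors known in striatal or other neurons, 8 had named circRNAs, with 11 tested. Of these 11, 10 exceeded WT RIP by over 1.5-fold in HuD RIP and 11 exceeded IgG RIP, as their listing in the tables would give, with median log2 differences of 2.89 and 3.14. In WT RIP against IgG RIP 0 of the 11 passed in limma, and the lowest adjusted p was 0.402. The circRNA of Satb1 (mmu_circRNA_30628), a chromatin organizer, lay nearest to the outer Foxp1 circRNA, with log2 differences of 2.71 against WT RIP and 2.36 against IgG RIP. Nearest to the nested circRNA was that of Bcl11b (mmu_circRNA_001140), a transcription factor of striatal projection neurons, with 2.78 and 3.51. Nearest to the upstream circRNA was one of Tcf4 (mmu_circRNA_011796), with 0.92 and 0.93.

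**Figure D5:**
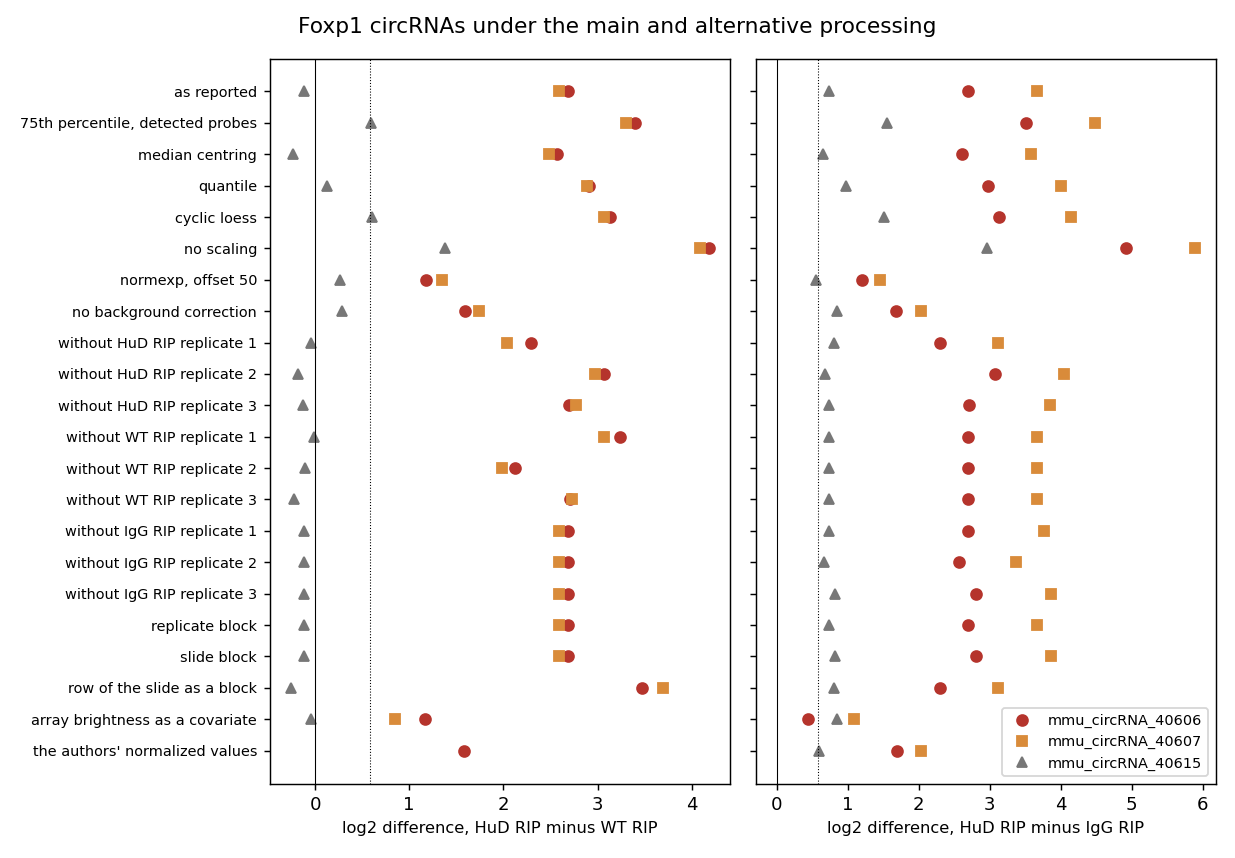
Log2 differences of the 3 Foxp1 circRNAs between HuD RIP and each control as reported and under each processing alternative run. The solid line marks 0 and the dotted line 1.5-fold. The outer (mmu_circRNA_40606) and nested (mmu_circRNA_40607) circRNAs lie right of 0 throughout, and the upstream circRNA (mmu_circRNA_40615) lies on both sides of 0 against WT RIP.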

How the data were processed

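The 9 arrays (Arraystar Mouse circRNA Array V2) were hybridized with RNase R-treated RIP RNA from mouse striatum. Per the file headers, Feature Extraction 11.0.1.1 produced the intensity values, of which the processed signal is background-corrected and has had no normalization across arrays. The authors' deposited tables hold normalized log2 values, made by a method not given in the sources used here, used only as an alternative, together with their p-values, false discovery rates and fold changes, which were not used. A further 8 columns of group means were not used.

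Flagged outlier spots were left out (269 values), spots of a probe were averaged, and each array's 75th percentile, taken over all non-control probes, was subtracted from its log2 processed signal. Every probe that at least 3 of 9 arrays measured well above background was fitted in R 4.3.3 with limma 3.58.1 (lmFit, eBayes) with 1 mean per group, and p-values were adjusted by Benjamini-Hochberg over the tested probes. The fit was tested on simulated data. Where a group had no array well above background, the fold is a bound that holds for this scaling only. In it each dim array counts with its lowest well-above-background signal, or with the probe's own where that is higher. Pairs of circRNAs were compared by exact permutation over arrays. The number of arrays limits the precision. Named circRNAs are all those of Foxp1, the 3 most correlated with each, and, in lists of forkhead and neuronal transcription factor genes, the one nearest to each in the HuD RIP contrasts. The 3 Foxp1 circRNAs and all lists were chosen with earlier results of these data known. Of 50 linear probes, 44 matched a gene of GRCm38.p6. Alternatives were other scalings, background corrections and filters, each array left out, a replicate block, slide, row, brightness, only the control arrays, and the methods' t-test. One slide carried 8 arrays and the other carried IgG RIP replicate 3 alone.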

Additional observations from a re-analysis of the deposited data

How the results depend on the processing

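Across the alternatives, 2 of the 3 Foxp1 circRNAs stayed over 1.5-fold higher than in WT RIP under all but the no-scaling, cyclic loess and detected-probe percentile alternatives, which gave 3. Against IgG RIP 3 did, except 2 with normexp and 2 with the brightness covariate. None of the 3 passed the limma test between the controls under any. The cause of the shifts below was not tested. All values are log2 differences for HuD RIP, given for the outer (mmu_circRNA_40606), nested (mmu_circRNA_40607) and upstream (mmu_circRNA_40615) circRNAs. Without scaling they were 4.18, 4.09 and 1.38 against WT RIP and 4.91, 5.89 and 2.96 against IgG RIP. With normexp they were 1.18, 1.35 and 0.27 against WT RIP and 1.20, 1.46 and 0.56 against IgG RIP. Without background correction the outer gave 1.59 and the upstream 0.29 against WT RIP, and the outer 1.69 and the nested 2.03 against IgG RIP. The percentile over detected probes gave the upstream 0.59 against WT RIP, and 3.51, 4.48 and 1.56 against IgG RIP. Quantile normalization gave the upstream 0.12 and 0.98 against WT RIP and IgG RIP, and cyclic loess 0.60 and 1.52. The authors' normalized values gave the outer 1.58 against WT RIP and 1.70, 2.04 and 0.60 against IgG RIP. With array brightness as a covariate the outer and nested gave 1.16 and 0.85 against WT RIP and 0.44 and 1.09 against IgG RIP. With the slide row as a block, which sets HuD RIP replicate 1 alone against WT RIP, the nested gave 3.70.

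Relative to the upstream circRNA on the same array, the changes of the outer one from WT RIP and IgG RIP to HuD RIP were 0.91 and 0.65 with normexp and 1.30 and 0.83 without background correction, and 1.10 from IgG RIP in the authors' values. Those of the nested one were 1.08 and 0.91 with normexp, 1.46 and 1.17 without background correction, 1.45 from IgG RIP in the authors' values, and 3.95 from WT RIP with the row block. With brightness as a covariate, chosen after seeing the data, the outer one gave 1.21 from WT RIP and -0.42 from IgG RIP, the nested one 0.90 and 0.23, and the nested minus outer change from IgG RIP was 0.65. That change was 0.26 with normexp, 0.34 without background correction and 0.34 in the authors' values, and from WT RIP 0.23 with the row block.

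Between WT RIP and IgG RIP, the small differences changed sign in some fits, all with no limma call. The outer circRNA gave -0.0015 with cyclic loess, -1.16 with the row block and -0.73 with the brightness covariate, the nested -0.58 with the row block, and the nested minus upstream difference -0.17 with normexp, -0.28 without background correction, -1.65 with the row block and -0.66 with the brightness covariate. Leaving out each array in turn moved the outer circRNA from -0.54 (without WT RIP replicate 1) to 0.57 (without WT RIP replicate 2) and the nested minus upstream difference from -0.16 to 0.83 (without the same arrays), the negative signs arising without WT RIP replicate 1 or 3 or IgG RIP replicate 2. Against WT RIP, leave-one-out values ran from 2.13 to 3.23 for the outer, 1.99 to 3.07 for the nested and -0.23 to -0.02 for the upstream circRNA. Over all features, between 0 and 2 passed the limma test of WT RIP against IgG RIP, where 1 did as reported. With a replicate block, the adjusted limma p of the upstream circRNA in that test was 0.603 for a log2 difference of 0.86, and no call changed. Samples with one replicate number correlated in their deviations from -0.0992 to 0.648 and those with different numbers from -0.658 to 0.180, with 5 of 9 arrays most alike to their own number, so the samples are taken to share only a number.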
